A study of Mus musculus with 32 samples.

Results

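Receptors were examined in the prefrontal cortex of mice 8 h into withdrawal from ethanol vapour, on one-colour spotted cDNA arrays. The members are the clone spots whose gene title contains the word receptor. Titles of ESTs, DNA segments, kinases and phosphatases were left out, and so were 7 matching spots of genes named in the rule. Of 43 matching titles, 36 clones remained, out of 4696 clones with an identity on the array, and they stand for 35 genes because Ramp2 has 2 clones. The mice came from lines bred for severe withdrawal (Withdrawal Seizure-Prone, WSP) or mild withdrawal (Withdrawal Seizure-Resistant, WSR), each bred as 2 independent populations called selection replicates. The 8 groups were female WSP EtOH, female WSP air, female WSR EtOH, female WSR air, male WSP EtOH, male WSP air, male WSR EtOH and male WSR air, with 4 arrays each. EtOH groups breathed ethanol vapour for 72 h after an injection of 1.5 g/kg ethanol, with a higher dose in selection replicate 2 of WSP, and air groups stayed in air chambers. Every group, air included, received the alcohol dehydrogenase inhibitor pyrazole at 68.1 mg/kg. Each array carried RNA pooled from 2 adult mice of the same selection replicate, and each group held 2 arrays per selection replicate. Arrays are called by selection replicate and pool, so 2-1 is pool 1 of selection replicate 2.

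Receptors bind a ligand outside the cell, or inside it for nuclear receptors, and pass the signal on through G proteins, ion flow, kinase cascades or transcription. In cortex, growth factor receptors act in glial and neuronal growth, G protein-coupled receptors tune excitability and inflammation, and Toll-like and Fc receptors belong mainly to microglia and blood cells. The label of the group, cell surface and nuclear receptors, holds for part of it. By title, 11 members are growth factor and cytokine receptors, 5 are G protein-coupled receptors of peptides, lipids or unknown ligands, and 3 are receptors of neurotransmitters. A further 6 are immune and Fc receptors, 3 serve guidance, uptake or import, and 1 is a nuclear receptor. The remaining 7 clones stand for proteins that bind or assist receptors and are not receptors themselves, among them the adaptor Grb2, the calcitonin receptor-like chaperone Ramp2, the endoplasmic reticulum protein Bcap31, the transcription factor Arnt2 and the Golgi protein Acbd3. Pex5, counted under import, is a cytosolic receptor that carries enzymes into peroxisomes.

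Most of these clones were faint. Levels are normalised log2 intensities, with a floor of 5.64 set by the offset of the background correction, and 34 of the 36 members had a mean within 1 unit of that floor. Differences of such clones are compressed. Of the members, 5 were above background on all 32 arrays, against 1236 of all 4696 clones, and 19 were above background on 16 or more arrays. The 5 were F2rl3, the thrombin-activated receptor of platelets, Crlf3, an orphan relative of the cytokine receptors, Clec1b, a C-type lectin of platelets, Tlr4, the sensor of bacterial lipopolysaccharide, and Ccr7, a chemokine receptor of lymphocytes and dendritic cells. F2rl3 ran from 9.56 to 10.28 over all arrays and Crlf3 from 6.81 to 7.90. Clec1b, Tlr4 and Ccr7 stayed below 7 on every array. At the other end, the epidermal growth factor receptor Egfr was above background on 4 arrays, and Igf1r, the receptor of insulin-like growth factor 1, on 5. The lone nuclear receptor clone, titled as member 1 of group H of subfamily 2, was above background on 12 arrays. The 2 Ramp2 clones differed by a median of 0.11 and by up to 0.96 on one array. The clone AI326829 was the higher of the pair on 24 of 32 arrays.

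**Figure D1:**
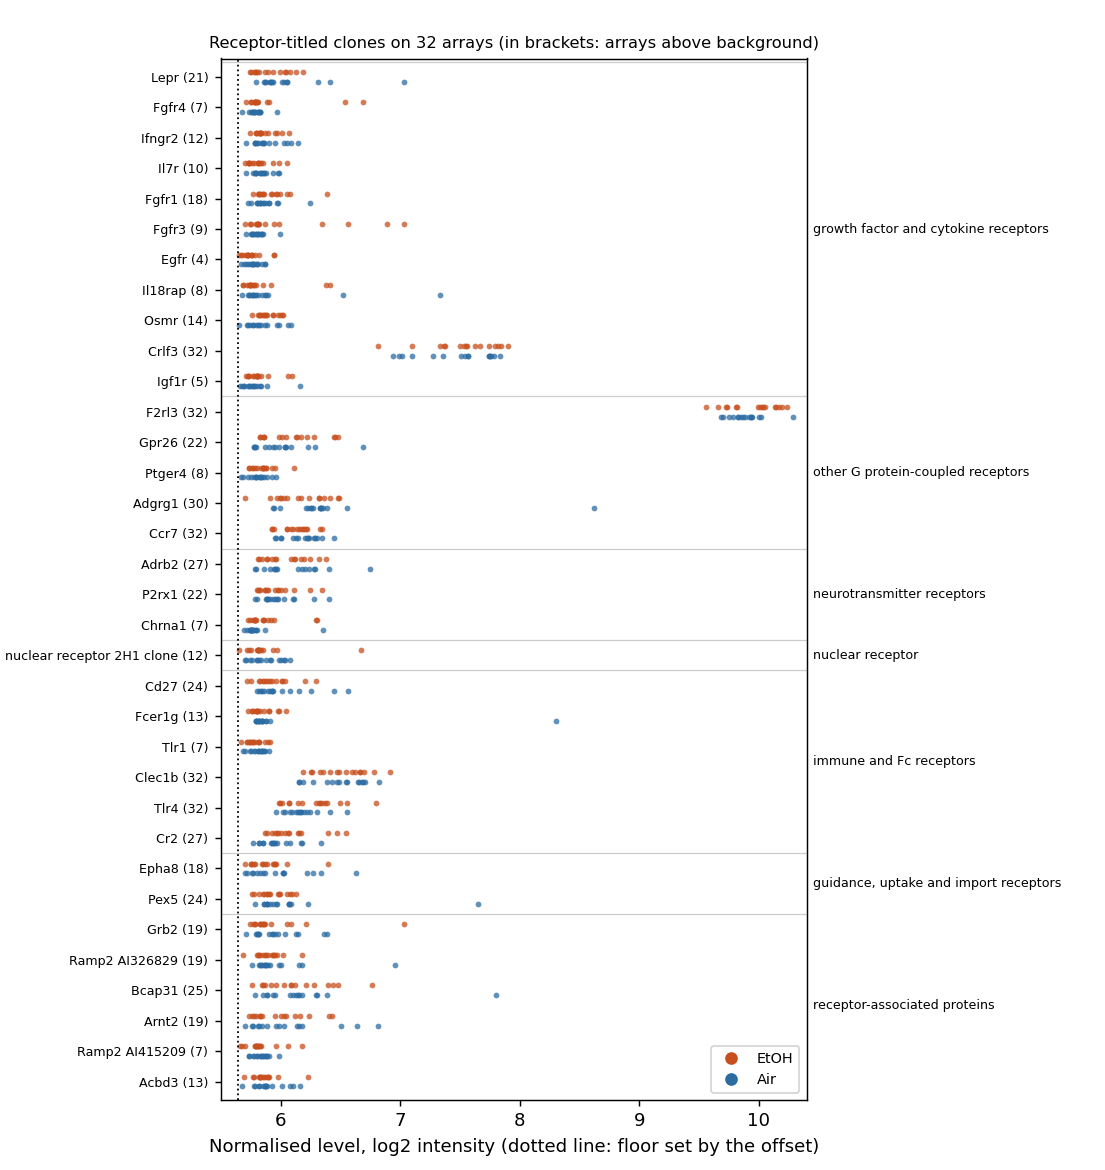
Normalised level (log2 intensity, x axis) of 34 clones on all 32 arrays, grouped by role, with 1 point per array for EtOH and air arrays and the number of arrays above background in brackets. F2rl3 and Crlf3 stand clear of the dotted floor at 5.64, and the other clones shown crowd near it with single high arrays.

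Arrays differed in ways that the groups do not describe. Between 51.1% and 88.7% of clones were above background on an array, with a median of 63.8%. Array background averaged 24.97 ± 10.7 intensity units on WSP arrays and 18.0 ± 4.61 on WSR arrays (SD, n = 16 each). The 192 spots of genomic DNA, which were no part of the tests, sorted 24 arrays into 9 sets whose control spots varied together, and only 1 set lay within a single group. No set that held both lines or both treatments included a female WSP array. The members followed these sets. Over the 36 members, the deviations from group means of 2 arrays from different groups correlated by a mean r of 0.444 within a set (21 pairs) and by -0.0219 between sets (427 pairs), a description over clones that share arrays. Of 42 cell type markers looked for by title, 15 were found. They included Thy1, Ina and Syn1 for neurons and Glul and Aldoc for astrocytes, each above background on 21 or more arrays.

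The comparison of the lines asked which receptors differ between mice bred for severe and for mild withdrawal. Crlf3 fell in WSP, and no other member passed the test. On the female WSP EtOH arrays 1-1, 1-2, 2-1 and 2-2, Crlf3 read 7.33, 7.50, 7.55 and 7.10, against 7.37, 7.67, 7.79 and 7.56 on the female WSR EtOH arrays. The female WSP air arrays read 6.99, 6.94, 7.02 and 7.10, against 7.51, 7.57, 7.74 and 7.36 on the female WSR air arrays. Among females, the air arrays of the lines did not overlap, and the EtOH arrays did. The share of all clones without overlap between lines was not counted. In males, the WSP EtOH arrays read 7.38, 6.81, 7.84 and 7.53, against 7.63, 7.74, 7.82 and 7.90 on the WSR EtOH arrays. The male WSP air arrays read 7.57, 7.27, 7.54 and 7.76, against 7.84, 7.74, 7.78 and 7.75 on the male WSR air arrays. Male groups overlapped under both treatments, with the lowest male value on a WSP EtOH array of selection replicate 1.

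Over all arrays Crlf3 averaged 7.33 ± 0.31 in WSP and 7.67 ± 0.16 in WSR (SD, n = 16 each), a log2 difference of -0.35 (SE 0.07) or 0.787-fold. limma gave an adjusted p of 0.0191 over all 4696 clones, and 14 of the 16 WSP arrays lay below the WSR mean. Of all clones, 0.639% passed in this comparison and 0.618% were lower in WSP, against 1 of the 36 members. In bulk tissue, fewer cells that carry a transcript and less of it per cell cannot be told apart. The call was lost under median scaling (-0.36, adjusted p = 0.385 in limma) and under cyclic loess (-0.23, adjusted p = 0.0911). Across all alternatives on 32 arrays the adjusted p ran from 0.00046, in the authors' value table, to 0.385.

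The direction was shared by both sexes and both treatments. The log2 difference, WSP minus WSR, was -0.38 in females, -0.31 in males, -0.39 in air and -0.30 in EtOH, each with an adjusted p in limma above 0.05 (0.104, 0.684, 0.314 and 0.792). By population, Crlf3 averaged 7.22 ± 0.28 in WSP selection replicate 1 and 7.43 ± 0.32 in WSP selection replicate 2, against 7.63 ± 0.15 in WSR selection replicate 1 and 7.71 ± 0.17 in WSR selection replicate 2 (SD, n = 8 each). Both WSP populations lay below both WSR populations. With 2 populations per line an exact permutation test cannot go below p = 0.333. With the populations as a random block in limma the adjusted p was 0.0248. That fit put the correlation within populations at 0.007 over all clones. It thus treated the arrays nearly as independent and is no test of 2 populations against 2. Of the 7 array sets that held both lines, 6 had a lower Crlf3 mean in WSP, and the differences within sets ran from -0.82 to 0.07. Every WSP array in these sets was male, 1 per set, so they do not cover the female difference. Some of these sets set the male WSP array against female WSR arrays as well. With the sets as a random block the difference was -0.34 (adjusted p = 0.0108 in limma). Raw Crlf3 signal was 2.76 to 9.98 times array background in WSP and 5.29 to 14.2 times in WSR. The higher background of WSP arrays moved with this result, and its part in it was not tested.

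**Figure D2:**
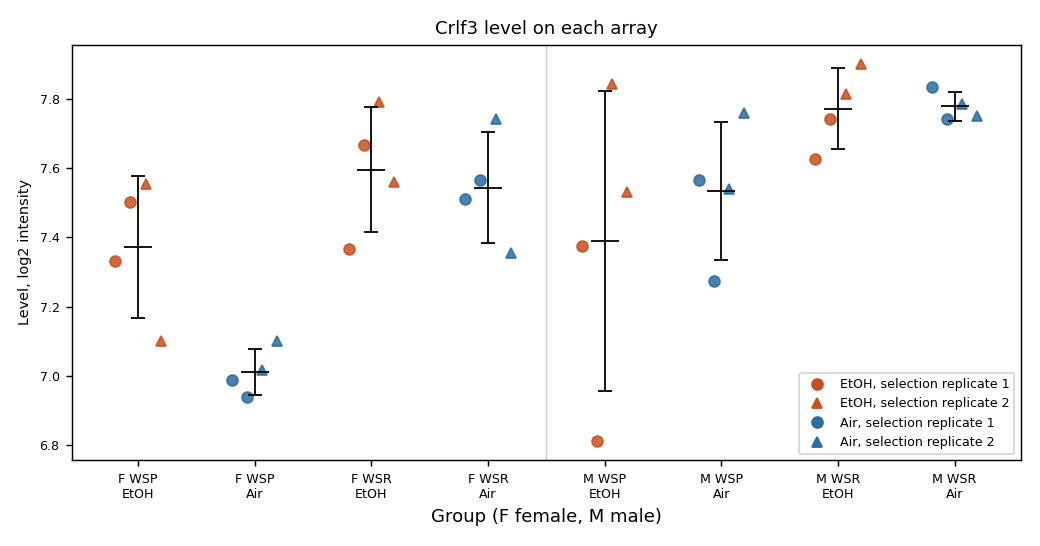
Crlf3 level (log2 intensity, y axis) on each array of the 8 groups, with circles for selection replicate 1, triangles for selection replicate 2, and a bar for the mean and SD of 4 arrays. WSP groups lie below the WSR groups of the same sex and treatment, with overlap in all but the female air groups.

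Among the other growth factor and cytokine receptors, values leaned either way without passing the test. Of all members, 3 had an unadjusted p under 0.05 in the line average, or 8.33%, against 7.18% of all clones, and besides Crlf3 these were Igf1r and Osmr. Osmr, the receptor subunit for oncostatin M, averaged 5.83 ± 0.09 in WSP and 5.91 ± 0.10 in WSR (SD, n = 16 each; adjusted p = 0.685 in limma). It was above background on 5 WSP arrays and 9 WSR arrays. Within array sets, where every WSP array was male, Osmr was lower in WSP in 6 of 7.

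Igf1r came nearest to the threshold among females. In female WSP it read 6.10, 6.06, 5.76 and 5.80 on the EtOH arrays and 5.81, 5.83, 5.88 and 6.16 on the air arrays. In female WSR it read 5.71, 5.73, 5.80 and 5.73 on the EtOH arrays and 5.83, 5.70, 5.72 and 5.77 on the air arrays, and none of these 8 was above background. All 8 female WSP arrays lay above the female WSR mean. Only 3 of these 8 were above background, EtOH 1-1 and 1-2, which form 1 array set, and air 2-2. Female WSP averaged 5.93 ± 0.16 and female WSR 5.75 ± 0.05 (SD, n = 8 each; adjusted p = 0.0902 in limma, with 0.298% of all clones passing). The bound from these means was 1.03-fold higher in WSP, and it includes the WSP arrays below background. In males the means differed by a log2 value of -0.00 under EtOH and -0.04 in air.

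Adgrg1 had the largest line difference among the G protein-coupled receptors, and it was seen in females. Adgrg1, an adhesion receptor of the developing cortex and of oligodendrocyte precursors, read 6.32, 6.41, 6.32 and 6.49 on the female WSP EtOH arrays, against 5.97, 5.997, 6.06 and 6.36 on the female WSR EtOH arrays. The female WSP air arrays read 6.56, 6.35, 8.62 and 6.27, against 5.95, 5.94, 6.32 and 6.39 on the female WSR air arrays. In selection replicate 1, every female WSP array lay above every female WSR array, a split whose share over all clones was not counted. In selection replicate 2 the lines overlapped, and 1 WSP air array stood far above all others. The log2 difference in females was 0.55 (SE 0.20, adjusted p = 0.231 in limma), and without that air array it was 0.27 (adjusted p = 0.195). In males it was -0.10 (adjusted p = 1). F2rl3 averaged 10.10 ± 0.15 in female WSP and 9.95 ± 0.12 in female WSR (SD, n = 8 each; adjusted p = 0.415 in limma). Clec1b ran the other way in the sexes without passing the test in either, with log2 differences of -0.18 in females and 0.11 in males, the second 0.06 without WSP EtOH array 1-1.

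The receptor-associated proteins and the remaining classes did not pass either. In females, 5 members had an unadjusted p under 0.05, or 13.9%, against 12.2% of all clones: Crlf3, Igf1r, Adgrg1, Grb2 and Ramp2 clone AI415209. Grb2, the adaptor that links receptor kinases to Ras, was higher in female WSP by 0.29 (adjusted p = 0.322 in limma), and by 0.15 (adjusted p = 0.513) without the WSP EtOH array 2-2, which read 7.03. Ramp2 clone AI415209 was higher by 0.13 (adjusted p = 0.17), while its partner AI326829 had overlapping groups and an unadjusted p above 0.05. Arnt2, the neuronal partner of basic helix-loop-helix factors, averaged 5.88 ± 0.14 in female WSP and 6.12 ± 0.36 in female WSR (SD, n = 8 each; adjusted p = 0.473). The difference was -0.24, and -0.13 without the WSR air array 1-1. Over all 36 members the median line difference was 0.02, against 0.00 over all clones, with 20 members higher and 16 lower in WSP (52.6% and 47.4% of all clones). None of the 7 role classes held a call other than that of Crlf3. By class, the growth factor and cytokine receptors had 4 members higher and 7 lower in WSP (median -0.01), the other G protein-coupled receptors 2 and 3 (median -0.00), and the immune and Fc receptors 5 and 1 (median 0.04). The neurotransmitter receptors had 2 higher and 1 lower (median 0.05), as had the guidance, uptake and import receptors (median 0.00), and the receptor-associated proteins had 4 and 3 (median 0.03).

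Split by treatment or taken in males, the line comparison gave no call among members or clones (0%). In air 3 members had an unadjusted p under 0.05, against 5.37% of all clones, namely Crlf3, Osmr and Adgrg1. Adgrg1 differed by 0.45 (adjusted p = 0.834 in limma), and by 0.17 without the female WSP air array 2-1. Osmr averaged 5.77 ± 0.07 in WSP air arrays and 5.91 ± 0.14 in WSR air arrays (SD, n = 8 each; adjusted p = 0.803 in limma). In EtOH it was Crlf3 alone, against 4.94% of all clones, and in males again Crlf3 alone, against 3.64%.

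**Figure D3:**
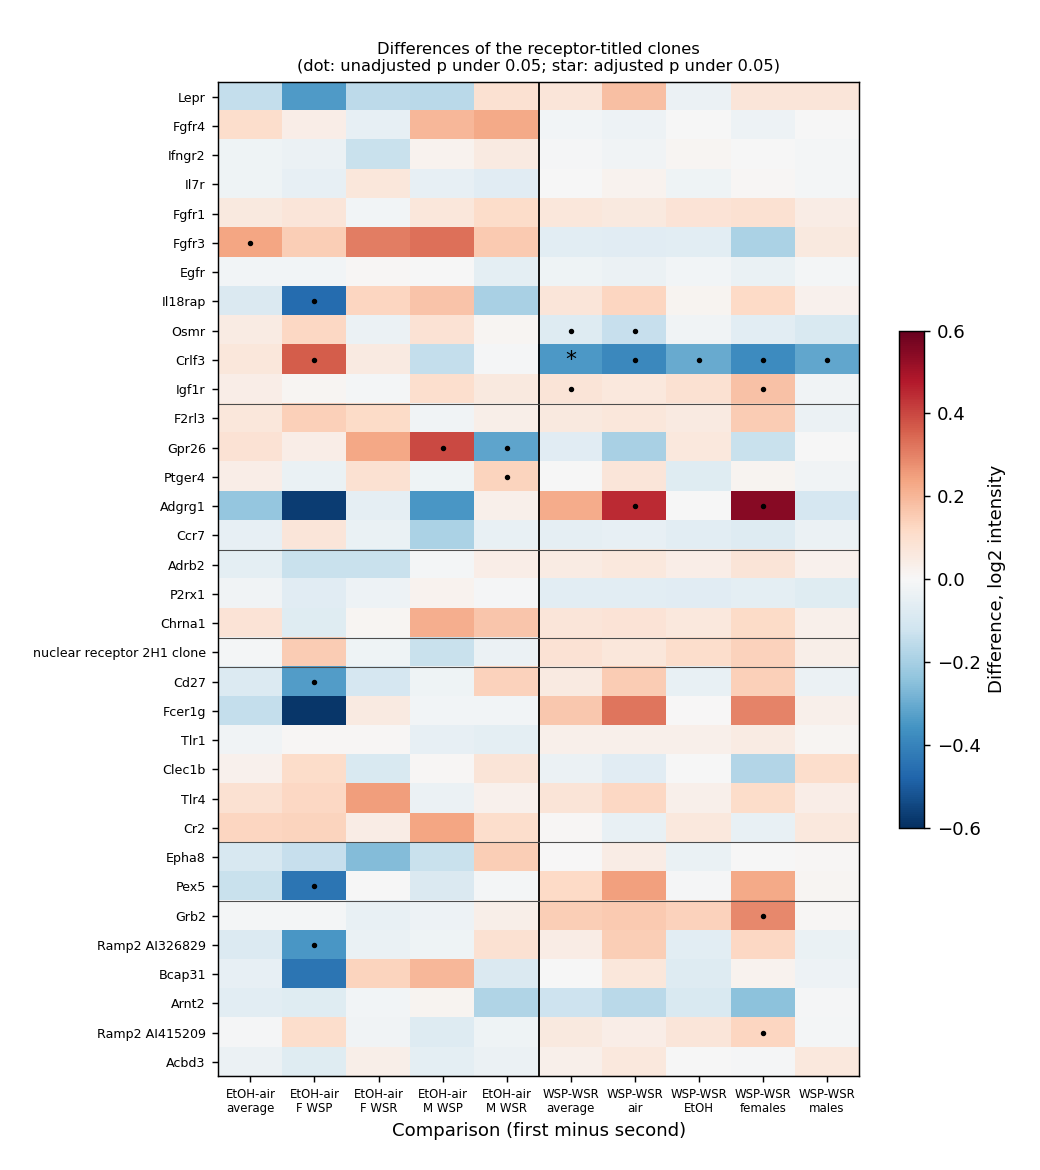
Log2 difference (colour) of 34 clones (rows, grouped by role) in the 5 comparisons of EtOH with air (left of the line) and the 5 of WSP with WSR (right of it), where F is female and M is male. The only star, an adjusted p under 0.05, is that of Crlf3 in the line average, and dots mark an unadjusted p under 0.05.

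The comparison of EtOH with air asked which receptors change in withdrawal. No member passed the test in the average over sexes and lines or in any of the 4 combinations of sex and line. None of the 4696 clones passed in them either (0% in each). In the average 1 member, Fgfr3, had an unadjusted p under 0.05, or 2.78%, against 7.52% of all clones. The median difference was -0.02 over the members and 0.00 over all clones, with 14 members higher and 22 lower in EtOH. Higher means were seen in 51.7% of all clones and lower means in 48.3%. By class, 6 growth factor and cytokine receptors were higher and 5 lower in EtOH (median 0.04), as were 3 and 2 of the other G protein-coupled receptors (median 0.04) and 3 and 3 of the immune and Fc receptors (median 0.00). Of the receptor-associated proteins 1 was higher and 6 were lower (median -0.03), all 3 guidance, uptake and import receptors were lower (median -0.10), and 1 neurotransmitter receptor was higher and 2 were lower (median -0.02). A p that misses the threshold does not show that a member was unchanged.

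Fgfr3, a growth factor receptor that in adult brain marks astrocytes, had the smallest p, and its difference rested on few arrays. On the EtOH arrays 1-1, 1-2, 2-1 and 2-2 it read 6.35, 5.79, 5.70 and 5.74 in female WSP, against 5.75, 5.78, 5.71 and 5.76 in air. Female WSR read 7.03, 5.94, 5.81 and 5.87 in EtOH, against 5.99, 5.81, 5.79 and 5.83 in air. In each EtOH group 1 array stood above the rest, and each time it was an array of selection replicate 1. Male WSP read 6.89, 5.99, 5.80 and 5.81 in EtOH, against 5.81, 5.80, 5.76 and 5.81 in air. Male WSR read 5.80, 6.57, 5.81 and 5.75 in EtOH, against 5.83, 5.85, 5.77 and 5.84 in air. No air array reached 6. The mean was 6.04 ± 0.43 in EtOH and 5.81 ± 0.06 in air (SD, n = 16 each), a log2 difference of 0.24 (adjusted p = 0.659 in limma). It was 0.47 in selection replicate 1 of WSP and 0.47 in selection replicate 1 of WSR, against 0.00 in selection replicate 2 of either line. The high arrays of female WSR and male WSR belonged to the same array set, and with sets as a random block the difference was 0.15 (adjusted p = 0.703). Within the 5 sets that held both treatments, Fgfr3 was higher in EtOH in 3 and lower in 2 (-0.05 to 0.13). None of the high EtOH arrays lay in these 5 sets, so the sets cannot decide whether those values go with EtOH. The astrocyte markers Glul and Aldoc read 8.11 to 9.52 and 5.80 to 6.20 on EtOH arrays. On air arrays they read 8.43 to 9.25 and 5.78 to 6.36, and the part of astrocytes in the Fgfr3 values was not tested.

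Fgfr4 and Chrna1 also had few high arrays. Fgfr4, a receptor of fibroblast growth factors, had 2 high arrays, male WSP EtOH 1-2 at 6.53 and male WSR EtOH 1-1 at 6.69, with all others at or below 5.97. Chrna1, the muscle-type acetylcholine receptor subunit, read 6.30 and 6.29 on these same 2 arrays, which form 1 array set, and 6.36 on the female WSP air array 2-1. Eng, the one endothelial marker found, had its highest values of all arrays on the same 2 arrays, 7.35 on male WSP EtOH 1-2 and 7.04 on male WSR EtOH 1-1, and its part in these values was not tested. The EtOH differences in the average were 0.11 for Fgfr4 (adjusted p = 0.755 in limma) and 0.08 for Chrna1 (adjusted p = 0.757), and neither passed the test. Without male WSR EtOH 1-1 each was 0.05.

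**Figure D4:**
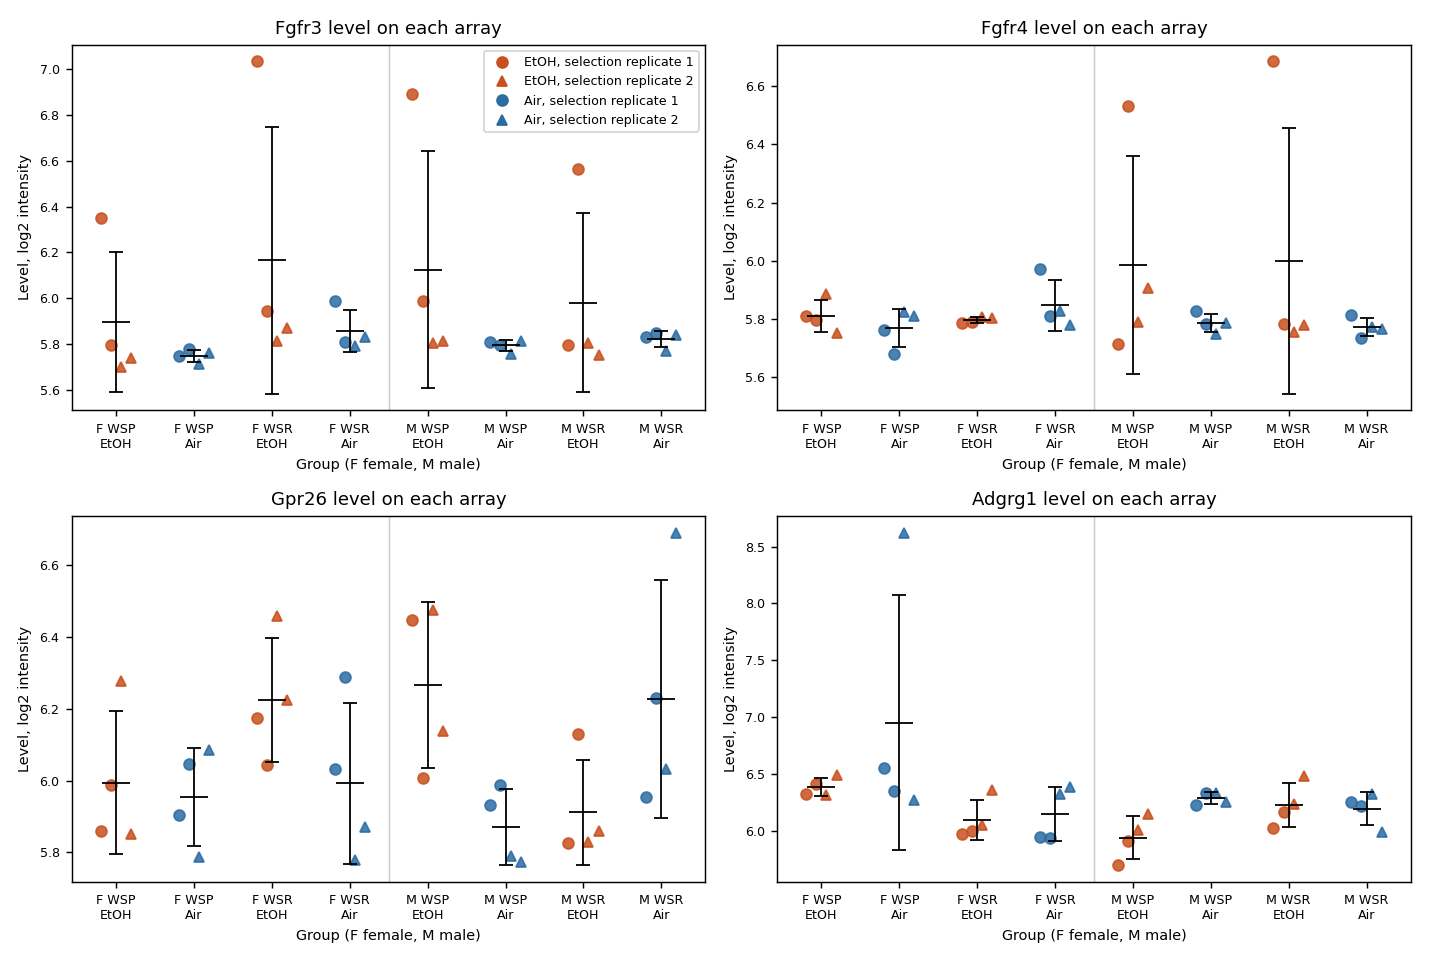
Levels (log2 intensity, y axes) of Fgfr3, Fgfr4, Gpr26 and Adgrg1 on each array of the 8 groups, with circles for selection replicate 1, triangles for selection replicate 2, and a bar for the mean and SD of 4 arrays. Fgfr3 and Fgfr4 are high on single selection replicate 1 EtOH arrays, and Adgrg1 reaches 8.62 on 1 female WSP air array.

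Cr2, Adgrg1, Lepr, Cd27, Pex5 and Epha8 had unadjusted p from 0.0707 to 0.217 in the average, none of them under 0.05. Cr2, the B cell receptor for complement fragments, averaged 6.10 ± 0.21 in EtOH and 5.97 ± 0.15 in air (SD, n = 16 each; adjusted p = 0.687 in limma). Within the 5 array sets that held both treatments, Cr2 was higher in EtOH in 4 and lower in 1 (-0.03 to 0.45). In 1 of the 4 the difference was 0.00088, and arrays within these sets also differed in sex and line. Lepr, the leptin receptor, averaged 5.91 ± 0.14 in EtOH and 6.06 ± 0.31 in air, and Epha8, an ephrin receptor of axon guidance, averaged 5.89 ± 0.17 in EtOH and 5.99 ± 0.26 in air. Without 1 array the average difference was -0.07 in place of -0.14 for Lepr and -0.03 in place of -0.13 for Pex5, and for Adgrg1 -0.09 in place of -0.23. These were female WSP air arrays, 2-2 for Lepr and 2-1 for Pex5 and Adgrg1. For Epha8 it was -0.05 in place of -0.10 without the female WSR air array 2-2. Of the 5 members above background on every array, differences in the average were 0.07 for F2rl3, -0.05 for Ccr7, 0.03 for Clec1b, 0.09 for Tlr4 and 0.07 for Crlf3, with adjusted p from 0.781 to 0.942.

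In female WSP, 5 members had an unadjusted p under 0.05, or 13.9%, against 11.6% of all clones. Of these, 1 was higher in EtOH (5.69% of all clones) and 4 were lower (5.88%). Crlf3 was the higher one, by 0.36 (SE 0.15), with means of 7.37 ± 0.20 in EtOH and 7.01 ± 0.07 in air (SD, n = 4 each; adjusted p = 0.369 in limma). Array 2-2 of EtOH overlapped with the air arrays, and the other 3 EtOH arrays lay above all of them. In the other combinations its EtOH arrays overlapped with air, with log2 differences of 0.05 in female WSR, -0.14 in male WSP and -0.01 in male WSR. The 4 that were lower were Cd27, a receptor of the tumour necrosis factor family, Ramp2 clone AI326829, Pex5 and Il18rap, the accessory chain of the interleukin 18 receptor, which is named after its value was seen. No Il18rap EtOH array was above background, and in air only array 2-2 was. Its mean was 5.73 ± 0.05 in EtOH and 6.19 ± 0.76 in air (SD, n = 4 each; adjusted p = 0.42 in limma). The bound from these means, 1.24-fold higher in air, rests on that 1 array.

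Single air arrays carried most of these lower values. On the female WSP air array 2-1, Adgrg1 read 8.62, Fcer1g 8.31, Bcap31 7.80 and Pex5 7.65. Those 4 genes read at most 6.56, 5.88, 6.08 and 6.23 on the other 3 air arrays of the group. Fcer1g encodes the signalling chain of Fc receptors in microglia and mast cells. The other microglial markers, Cd14 and Mpeg1, read 5.82 and 6.33 there, against 5.71 to 5.76 and 6.02 to 6.42 on the other 3, and the part of other cell types in these values was not tested. For EtOH against air in female WSP, Pex5 differed by -0.44 (adjusted p = 0.419) and by -0.03 without this array. Adgrg1 differed by -0.57 and by -0.01 without it, Fcer1g by -0.58 and 0.04, and Bcap31 by -0.44 and 0.02.

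A second female WSP air array, 2-2, was high in other members. It read 7.33 for Il18rap, 7.03 for Lepr, 6.95 for Ramp2 clone AI326829 and 6.41 for P2rx1, an ATP-gated ion channel. With and without it, the log2 difference of EtOH against air in female WSP was -0.46 and -0.08 for Il18rap, -0.34 and -0.06 for Lepr, and -0.35 and -0.10 for Ramp2 clone AI326829. Cd27 read 5.91, 5.75, 5.88 and 6.21 in female WSP EtOH, against 6.15, 6.57, 5.93 and 6.44 in female WSP air, a difference of -0.33 (adjusted p = 0.299) that was -0.45 without air array 2-1, -0.28 without 2-2 and -0.24 without 1-2. Osmr was the member whose female WSP groups did not overlap (5.47% of all clones), at 5.94, 5.86, 5.98 and 5.81 in EtOH and 5.79, 5.81, 5.77 and 5.73 in air. None of its 4 air arrays was above background.

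In female WSR, 0 members had an unadjusted p under 0.05, against 3% of all clones. Tlr4 read 6.80, 6.33, 5.99 and 6.17 in EtOH, against 5.96, 6.17, 6.13 and 6.04 in air, and its high array was shared with Fgfr3. Its difference was 0.25, and 0.09 without that array. Gpr26, an orphan receptor of brain neurons, averaged 6.22 ± 0.17 in EtOH and 5.99 ± 0.22 in air (SD, n = 4 each; adjusted p = 1 in limma), a difference of 0.23 that was 0.15 without EtOH array 2-1. Ifngr2, the second chain of the interferon gamma receptor, was the member without overlap (2.49% of all clones). It read 5.83, 5.79, 5.83 and 5.83 in EtOH, none above background, against 6.06, 5.90, 6.03 and 5.84 in air. Its mean was 5.82 ± 0.02 in EtOH and 5.96 ± 0.10 in air (adjusted p = 1 in limma). The bound from these means was 1.055-fold higher in air, and it leaves out their spread.

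In male WSP, Gpr26 was the 1 member with an unadjusted p under 0.05 (2.78%, against 6.15% of all clones). It read 6.45, 6.01, 6.48 and 6.14 in EtOH, against 5.93, 5.99, 5.79 and 5.77 in air, without overlap. The means were 6.27 ± 0.23 in EtOH and 5.87 ± 0.11 in air, a log2 difference of 0.40 (adjusted p = 0.751 in limma). In male WSR the order was turned: Gpr26 read 5.83, 6.13, 5.83 and 5.86 in EtOH, against 5.95, 6.23, 6.03 and 6.69 in air, a difference of -0.31 (adjusted p = 1) that was -0.16 without air array 2-2. The highest arrays in these values, male WSP EtOH 2-1 at 6.48 and male WSR air 2-2 at 6.69, belonged to 1 array set together with female WSR EtOH 2-1 at 6.46. Across that set the 3 values of Gpr26 averaged 6.54, against 6.01 outside it. Within the 5 sets that held both treatments, Gpr26 was higher in EtOH in 2 and lower in 3 (-0.22 to 0.15). With sets as a random block the difference was 0.26 in male WSP (adjusted p = 0.72) and -0.17 in male WSR.

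Chrna1 and Adgrg1 were the other members without overlap in male WSP, so 3 of 36 did not overlap, against 2.77% of all clones. Chrna1 averaged 5.97 ± 0.23 in EtOH and 5.76 ± 0.01 in air, where no array was above background (adjusted p = 0.751 in limma). The bound from these means was 1.09-fold higher in EtOH, and it leaves out their spread. The log2 difference was 0.22, and 0.11 without EtOH array 1-2. Adgrg1 read 5.70, 5.91, 6.004 and 6.15 in EtOH, against 6.23, 6.33, 6.33 and 6.25 in air, a log2 difference of -0.35 (adjusted p = 0.842). The SE of 0.28 comes from a fit over all 8 groups, and it includes the spread of the high female WSP air array.

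In male WSR, 2 members had an unadjusted p under 0.05 (5.56%, against 3.39% of all clones), Gpr26 and Ptger4. Ptger4, the prostaglandin E2 receptor EP4, read 5.93, 5.95, 5.86 and 5.85 in EtOH, against 5.83, 5.67, 5.82 and 5.73 in air, and was the member without overlap (3.56% of all clones). Its difference was 0.13 (SE 0.06, adjusted p = 1 in limma) and 0.05 with sets as a random block, and 2 of 4 arrays were above background in either group.

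Whether EtOH acted differently in the lines was tested by an interaction, the EtOH difference in WSP minus that in WSR. No member passed, as no clone did (0%), and 1 member, Ptger4, had an unadjusted p under 0.05 (2.78%, against 2.09% of all clones). Ptger4 gave -0.15 (SE 0.06, adjusted p = 0.999 in limma). Gpr26 gave 0.26 (SE 0.14) and Adgrg1 -0.45 (SE 0.28), both with an adjusted p of 0.999. Without the female WSP air array 2-1, Adgrg1 gave -0.17. Crlf3 gave 0.09 (SE 0.15), and 0.01 without the male WSP EtOH array 2-1 or 0.18 without 1-2.

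The array sets showed in several members at once. Il18rap read 6.41, 6.38 and 6.52 on the same 3 arrays on which Gpr26 was high, from female WSR EtOH, male WSP EtOH and male WSR air, and its mean outside that set was 5.83. Arnt2 read 6.51 and 6.64 on male WSP air 1-1 and male WSR air 1-1, another set, against a mean of 5.99 outside it. Epha8 averaged 6.45 over a set of female WSR air, male WSP air and male WSR EtOH arrays, against 5.88 elsewhere. For 6 of 36 members, the 2 highest arrays of all 32 came from 1 set, among them Gpr26, Epha8, Fgfr4, Tlr4 and Osmr. Arrays of a set came from different pools of mice, but always from the same selection replicate number. Differences between selection replicates, such as that of Fgfr3, therefore cannot be told apart from differences between sets. What else the arrays of a set had in common is not given in the sources used here.

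**Figure D5:**
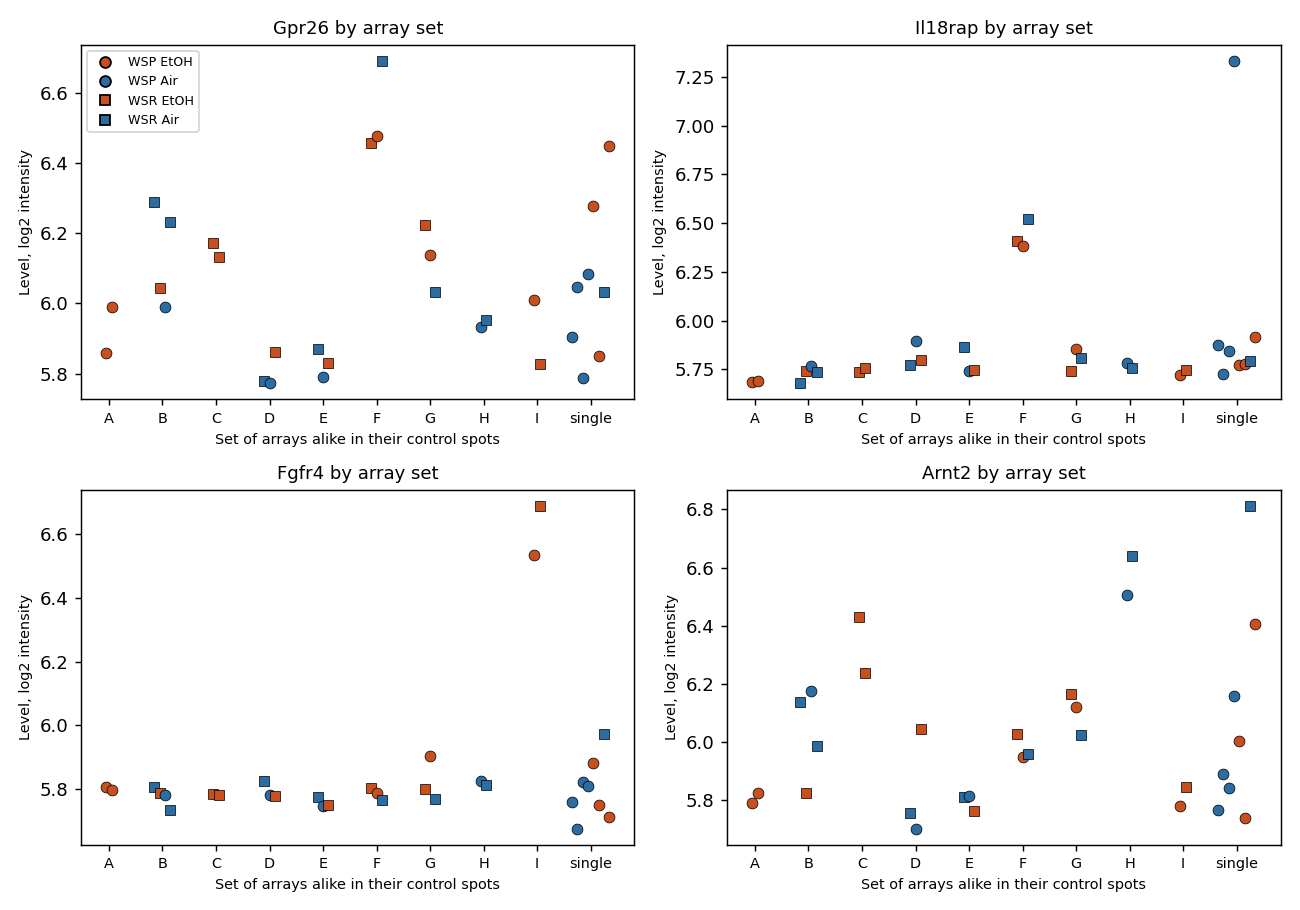
Levels (log2 intensity, y axes) of Gpr26, Il18rap, Fgfr4 and Arnt2 on the arrays of the 9 sets found from control spots (A to I) and on arrays in no set (single), with circles for WSP, squares for WSR, and colours for EtOH and air. Gpr26 and Il18rap are high on all 3 arrays of set F, which hold both lines and both treatments, Fgfr4 is high on both arrays of set I, and Arnt2 on both of set H.

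The partners of these receptors were followed through clones found by title. Of 22 receptor ligands, 1 passed in the line average, where 0.639% of all clones passed. It was the chemokine titled small inducible cytokine subfamily A, member 22, which fell by 0.27 in WSP (SE 0.06, adjusted p = 0.0164 in limma). Also in females it was lower in WSP, with a log2 difference of -0.45 (adjusted p = 0.00637 in limma, with 0.298% of all clones passing). The alternatives in processing were run for the members only, so how far this call depends on them was not tested. Over the ligands, 9 were higher and 13 lower in WSP with a median of -0.02, against 0.00 over all clones. Of 7 clones of G protein subunits and regulators, none passed, 5 were higher in WSP and the median was 0.01. The smallest p among them was that of the G protein subunit alpha 11, at 0.23 (adjusted p = 0.172). None of the ligands or G protein partners passed for EtOH against air, where the medians were -0.03 and -0.00 in the average.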

How the data were processed

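RNA of the prefrontal cortex was measured on 32 one-colour arrays from 64 mice. Per the labels' protocols, 2.5 µg of total RNA from each of 2 mice was pooled and labelled radioactively. Per the file headers, the deposited scanner files hold a spot intensity and 1 background intensity per array. The authors' value table holds deposited log2 values, blank where a signal is below background, with column medians of 7.39 to 8.58. It ranks clones as the intensities do (rank correlation 1), while its centring stays unknown, and it served as an alternative.

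From the intensities, background was removed with normexp (offset 50, all 5355 spots), the 4696 clones were kept, and quantile normalisation and log2 followed. The 192 control and 467 unnamed spots were not tested. In R 4.3.3, limma 3.58.1 estimated the 8 group means from 32 arrays by lmFit and a trended eBayes (residual degrees of freedom 24, prior 5.60). Tests were 2-sided and adjusted over all clones by Benjamini-Hochberg with a threshold of 0.05. They were also run on simulated data with independent noise for every clone and array. Such noise leaves out the correlation within array sets, so that run cannot give the error rate in these data. Above background means a signal over the array's background. For a clone with no array above background in a group, the fold is a bound, set against the lowest signal above background. Array sets were found by clustering correlations of the control spots at a height of 0.75.

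The members, role classes, marker and partner lists were chosen with earlier results of these data known. Named are called members, and otherwise those with the smallest p, up to 5 per direction in averages and 3 in single combinations of sex and line, and members above background on every array. Results for 2 members and 1 marker are not reported here, though they stayed in the fits and counts. Titles were matched by hand to 34 symbols, all of them in RefSeq. Same-numbered selection replicates share a population by label, so the replicate block was fitted as an alternative. Correlations of their deviations between EtOH and air were -0.0775 (female WSP), 0.213 (female WSR), -0.0191 (male WSP) and -0.00304 (male WSR). The arrays' number limits the precision, and pools of mice are the replicates. No genome build is named, so no coordinates are given.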

Additional observations from a re-analysis of the deposited data

Results flagged for a closer look

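Over 240 groups of 4 arrays (30 clones in 8 groups), 20 had 1 array set apart from the other 3 by Dixon's criterion. Of these, 18 were high and 2 low. The 30 clones are those named by the rule above, and other members, such as Il18rap and Bcap31, were not screened. For independent normal values chance gives about 1 in 20. The clones share arrays and most were named by their p in these data, so the count cannot be judged against that rate. In female WSP EtOH the values set apart were Fgfr3 at 6.35 on array 1-1, Ifngr2 at 6.06 on 2-1 and Grb2 at 7.03 on 2-2. In female WSP air they were Clec1b at 6.64 and Ccr7 at 6.30 on 1-1, Adgrg1 at 8.62, Fcer1g at 8.31 and Chrna1 at 6.36 on 2-1, and Lepr at 7.03 and P2rx1 at 6.41 on 2-2. In female WSR EtOH they were Fgfr3 at 7.03 and the nuclear receptor clone at 5.75 on 1-1, and Lepr at 6.13 and Ifngr2 at 5.79 on 1-2, and in female WSR air Ramp2 clone AI326829 at 6.18 on 2-2. Male arrays set apart were Fgfr3 at 6.89 on WSP EtOH 1-1, Fgfr4 at 6.69 on WSR EtOH 1-1, Fgfr3 at 6.57 and Gpr26 at 6.13 on WSR EtOH 1-2, and Arnt2 at 6.64 on WSR air 1-1. Fgfr3 was set apart in all 4 EtOH groups.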

How the results depend on the processing

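For EtOH against air and for the interaction, 0 members passed under every alternative run. With the replicate block (selection replicate within line), which pairs EtOH with air arrays of the same population, the Crlf3 line difference was -0.35 (adjusted p = 0.0149 in limma), and no count of calls changed. In the line average 1 member passed, and 0 under median scaling (Crlf3 -0.36), cyclic loess (-0.23), selection replicate 1 alone (-0.41) and selection replicate 2 alone (-0.28). Selection replicates alone leave fewer arrays, and the cause under the other 2 was not tested. Leaving out single arrays gave Crlf3 -0.38 to -0.30 with adjusted p from 0.00367 to 0.0454. The authors' value table, which tests 2170 clones and 13 members, gave 1 call in EtOH (Crlf3), 1 in females (Adgrg1) and 1 in males (Crlf3). In females, selection replicate 1 alone gave 1 call (Igf1r), and leaving out single arrays gave 0 to 1, with Igf1r called without female WSP EtOH 2-1 and Crlf3 without male WSP EtOH 1-2.

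Of 90 named differences, 72 kept their sign under every alternative that gave them a value, among them the Crlf3 line average. The authors' value table gave 37 of the 90 a value and the filter on dim clones 74. Signs turned in selection replicate 1 alone for Pex5 in female WSP (0.0021), Gpr26 in female WSR (-0.052), Egfr in the line average (0.026) and in air (0.0013), Ccr7 (0.045) and P2rx1 (0.0021) between lines in EtOH, Clec1b in females (0.10) and Ramp2 clone AI415209 in the interaction (-0.036). In selection replicate 2 alone they turned for Chrna1 (-0.054) in the EtOH average, Tlr4 in female WSR (-0.0010), Fgfr4 in male WSR (-0.0028), Igf1r (-0.015) and the nuclear receptor clone (-0.017) between lines in EtOH, and Clec1b in males (-0.030). They turned for Cr2 in the interaction in the authors' value table (-0.017), Ramp2 clone AI415209 in the interaction under cyclic loess (-0.00061) and Crlf3 in the interaction under median scaling (-0.022). Leaving out single arrays turned the sign of Fgfr4 in male WSR (-0.00052 to 0.31), of the nuclear receptor clone (-0.0012 to 0.17) and Grb2 (-0.0049 to 0.19) between lines in EtOH, and of Ccr7 (-0.074 to 0.012) between lines in males. Signal near the array background limits all members but F2rl3 and Crlf3.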
